A study of Mus musculus with 4 samples.

Results

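The difference of infarct responses between genotypes is described here for every gene expressed in 4 mouse left ventricle libraries. Within each genotype, infarcted tissue was set against non-infarcted tissue as a log2 ratio of (RPKM + 1), and the wild-type ratio was subtracted from the ratio in the libraries labelled knockout. RPKM is the read number scaled to gene length and to the library's total of reads, and the 1 RPKM that is added damps the ratios of weakly expressed genes. A gene had to reach 1 RPKM in at least 1 of the 4 libraries, which kept 12716 of the 17550 genes with a read in any library. A positive difference therefore means a more positive, or less negative, infarct ratio in the libraries labelled knockout.

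The mice were C57BL/6 animals aged 8 weeks, either wild type or labelled Neil3-/-, with tissue taken on day 3 after an induced myocardial infarction. Each genotype gave 1 library of infarcted and 1 library of non-infarcted left ventricle from total RNA, sequenced on an Illumina HiSeq instrument. The labels do not say how many mice a library holds, and every animal had been infarcted, so neither region is tissue of an uninjured heart. With 1 library per group there is no replicate check and no p-value, and every value below describes these 4 libraries. Intervals in parentheses are exact 95% intervals for counting error only.

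After a coronary occlusion the dying myocardium is invaded by neutrophils and then by monocytes and macrophages, which clear debris while fibroblasts start to build a scar. Cardiomyocytes that survive switch on stress genes such as the natriuretic peptides and reduce genes of contraction and oxidative metabolism. NEIL3 is a DNA glycosylase of base excision repair that acts mainly in proliferating cells.

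Neil3 (Entrez 234258), the gene named in the genotype, had more reads in the libraries labelled knockout. Its level was 1.83 RPKM in wild-type non-infarcted and 3.95 RPKM in wild-type infarcted tissue, from 62 and 155 reads. In the libraries labelled knockout it was 12 RPKM and 18.5 RPKM, from 391 and 763 reads. Which stretch of Neil3 was deleted is not stated in the labels. Its read number therefore does not check the genotype, and both libraries are called by their label throughout. Neil3 itself was 2.16-fold higher in infarcted tissue in wild type and 1.53-fold higher in the libraries labelled knockout. Its difference was -0.23, and the ratio of both infarct ratios computed from the reads was 0.710 (0.507 to 0.985). With 5 RPKM added in place of 1 RPKM the difference turned to 0.07.

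The libraries held 14.3 M to 18.2 M uniquely assigned reads. The 14 contractile genes of cardiomyocytes took 8.34% and 4.04% of reads in wild-type non-infarcted and infarcted tissue, against 7.84% and 2.71% in the libraries labelled knockout. The lowest share was that of the infarcted library labelled knockout. Ribosomal RNA took between 1.45% and 2.32% of reads. The Y-linked genes Ddx3y, Eif2s3y, Kdm5d and Uty were read in all 4 libraries.

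Most genes had nearly the same infarct ratio in both genotypes. The median difference over the 12716 genes was 0.00 on the log2 scale with an SD of 0.26, and the 5th and 95th percentiles were -0.42 and 0.38. A difference of at least 2-fold was found for 38 genes in the positive direction (0.299% of genes compared) and for 29 in the negative direction (0.228%). At 1.5-fold the numbers were 142 higher (1.12%) and 197 lower (1.55%). Of the 67 genes past 2-fold, 37 were genes of ribosomal or small noncoding RNA, although only 81 such genes were compared. The other 30 genes, 16 higher and 14 lower, were 0.237% of the 12635 other genes compared. No gene at 5 RPKM or more was at least 1.5-fold higher in infarcted tissue of one genotype and at least 1.5-fold lower in that of the other.

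**Figure D1:**
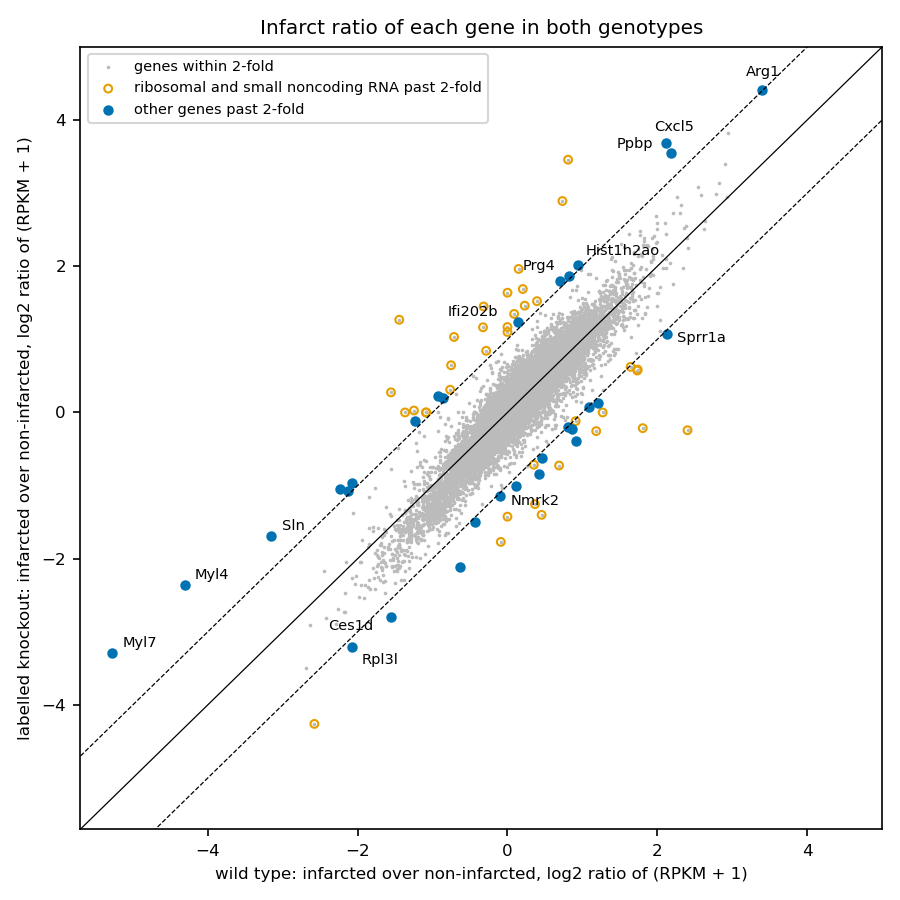
Infarct log2 ratio of (RPKM + 1) of each compared gene, with wild type on the x axis and the libraries labelled knockout on the y axis, with the line of equal ratios and dashed lines at a 2-fold difference. Most points lie along the line of equal ratios. The 30 other genes past 2-fold include Myl7, Myl4, Cxcl5 and Ppbp above the band and Rpl3l, Nmrk2 and Sprr1a below it.

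For each gene past 2-fold, the 4 libraries were compared to find where the difference lay. A single library was taken to carry it when the other 3 spanned no more than 0.5 of the difference on the log2 scale. Otherwise the difference was assigned to the infarcted pair of libraries when that pair held more than 0.667 of it, to the non-infarcted pair when the infarcted pair held less than 0.333, and to both regions in between. Among the 30 genes other than small RNA, 7 lay in the infarcted pair, 7 in the non-infarcted pair and 7 in both regions. Single libraries carried the remaining genes, 3 in wild-type non-infarcted tissue, 3 in wild-type infarcted tissue, 2 in the non-infarcted and 1 in the infarcted library labelled knockout. At 1.5-fold, 94 of 290 such genes lay in the infarcted pair, 62 of them with a negative difference.

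**Figure D2:**
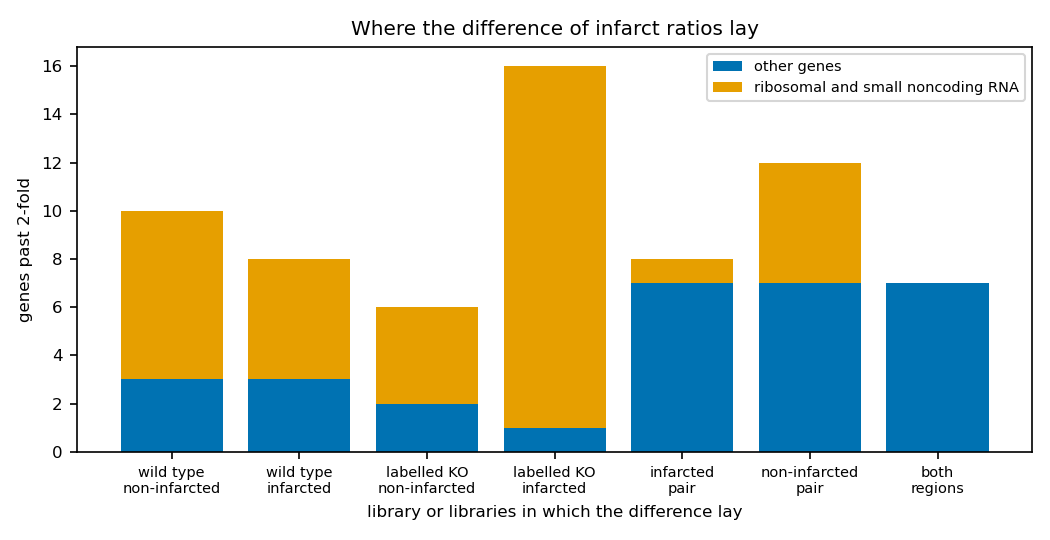
Number of the 67 genes past 2-fold (y axis) by the library or pair of libraries in which the difference lay (x axis), with other genes in blue and ribosomal and small noncoding RNA in orange. The infarcted library labelled knockout (labelled KO) carried 16 genes, of which 15 were ribosomal or small noncoding RNA.

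With small noncoding RNA left out, the highest differences belonged to Myl7 and Myl4, genes of atrial muscle, and lay in the non-infarcted libraries. Myl7 codes for the regulatory light chain of atrial myosin. It was measured at 49.0 RPKM and 0.290 RPKM in non-infarcted and infarcted wild-type tissue, and at 10.6 RPKM and 0.183 RPKM in the libraries labelled knockout. Myl4, the atrial essential light chain, was at 63.1, 2.23, 16 and 2.30 RPKM in the same order, which is kept below. Each gene was at like, low levels in both infarcted libraries, while the wild-type non-infarcted library was the highest of the 4. The differences were 1.98 for Myl7 and 1.95 for Myl4, and wild-type non-infarcted tissue held 4.61-fold and 3.94-fold the level of the labelled-knockout library.

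Reads gave a different precision for the 2 light chains. For Myl4 the infarct ratio in the libraries labelled knockout was 4.07 times that in wild type (2.41 to 6.85). For Myl7 the ratio of ratios was 2.91 (0.239 to 25.7), because the infarcted libraries held only 3 and 2 reads. Sln, the sarcolipin that inhibits the calcium pump of atrial muscle, was at 7.89 RPKM and 2.22 RPKM in non-infarcted tissue and had no read in either infarcted library, so no ratio is given. Mybphl, an atrial myosin-binding protein, was at 3.91, 0.0450, 1.25 and 0.0854 RPKM, a difference of 1.18, also in the non-infarcted pair. Its infarcted libraries held 1 and 2 reads, and its ratio of ratios was 5.93 (0.290 to 355).

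All 5 compared genes of the atrial list had a positive difference, with a median of 1.47 against 0.00 over all genes, and 4 of them passed 1.5-fold, against 1.12% of all genes compared. The remaining members were Dkk3, a secreted dickkopf family protein, at 8.66, 3.24, 5.92 and 4.73 RPKM, and the connexin Gja5 at 5.68, 8.88, 4.80 and 8.75 RPKM. The summed level of the list was 134 RPKM in wild-type non-infarcted tissue, 39.8 RPKM in the labelled-knockout library of that region, and 14.7 and 16 RPKM in infarcted tissue. Atrial genes were thus read in libraries labelled left ventricle. Whether atrial tissue was included was not tested.

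Promoter windows at the RefSeq start of the 2 light chain genes are shown because both genes had the same order of levels in the non-infarcted libraries. Each run covers 250 bases before to 50 bases after the start of the gene in RefSeq, on GRCm38.p6, a later build than the mm9 named in the submitters' processing notes. Capitals mark the CArG box, the binding sequence of serum response factor, and the letters GATAAG, a form of the site of GATA factors, each searched on both strands.
Myl7, chr11:5898733-5899032, minus strand: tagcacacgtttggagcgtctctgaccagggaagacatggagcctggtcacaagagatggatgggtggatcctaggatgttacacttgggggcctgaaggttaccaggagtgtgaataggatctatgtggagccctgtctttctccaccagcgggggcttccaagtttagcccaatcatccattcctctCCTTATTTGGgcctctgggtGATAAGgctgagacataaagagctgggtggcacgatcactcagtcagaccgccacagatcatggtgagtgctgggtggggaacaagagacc
Myl4, chr11:104550413-104550712, plus strand: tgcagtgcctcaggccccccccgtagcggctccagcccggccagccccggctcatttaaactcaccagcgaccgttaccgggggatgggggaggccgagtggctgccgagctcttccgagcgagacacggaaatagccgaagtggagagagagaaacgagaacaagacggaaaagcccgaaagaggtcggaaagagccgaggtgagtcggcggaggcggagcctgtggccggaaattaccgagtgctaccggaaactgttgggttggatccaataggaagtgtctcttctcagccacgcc
The Myl7 window held 1 CArG box and 1 GATAAG, and the Myl4 window held neither. Whether transcription in these samples starts in either window was not tested. Of 32544 mouse promoter windows of this length, 1.64% held a CArG box and 7.32% held GATAAG.

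Several chemokines that attract neutrophils and monocytes had a more positive infarct ratio in the libraries labelled knockout. Cxcl5 was at 2.72 and 15.2 RPKM in wild type, and at 1.35 and 29.2 RPKM in the libraries labelled knockout. The labelled-knockout libraries were thus the lowest and the highest of the 4, and the difference of 1.56 lay in both regions. Cxcl5 was 5.59-fold higher in infarcted tissue in wild type and 21.6-fold higher in the libraries labelled knockout, a ratio of ratios of 3.86 (2.45 to 6.17). Ppbp, the platelet basic protein from which the chemokine CXCL7 is cut, was at 3.15, 17.8, 2.09 and 35.3 RPKM. Its difference of 1.38 lay in the infarcted pair, and its ratio of ratios was 3.00 (1.86 to 4.88).

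Cxcl5 and CXCL7 act through the receptor Cxcr2, whose own level was 2.45, 9.84, 2.41 and 11.1 RPKM, a difference of 0.18. The list of inflammatory cytokines and chemokines had 17 members above and 3 below 0 of 20 compared, a median of 0.35, and 6 members past 1.5-fold, all higher (1.12% of all genes were). These were Cxcl5, the neutrophil chemokine Cxcl1 (0.73), the monocyte chemokines Ccl3 (0.72) and Ccl7 (0.70), the interleukin-1 receptor antagonist Il1rn (0.72) and Il6 (0.68). Cxcl1 was at 4.32, 13.0, 1.60 and 10.4 RPKM, so that its difference came with a lower level in non-infarcted tissue labelled knockout and not with a higher level in infarcted tissue. Il6 was at 1.36, 10.3, 1.03 and 14.6 RPKM. Over the list, the median difference between genotypes was -0.29 in non-infarcted and 0.06 in infarcted tissue. Osm, Cxcl2 and Ccl8 were the members below 0, at -0.46, -0.26 and -0.20.

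Of 13 genes on the neutrophil list, 12 were found and 10 compared. Their median difference was 0.33, with 9 of 10 above 0 and 1 past 1.5-fold, against 1.12% of all genes compared. Their median infarct ratio was 2.16 in wild type and 2.39 in the labelled-knockout libraries. Genes other than small RNA with a mean ratio above 2 had a median difference of 0.42, and 80.9% of them were above 0. S100a8, a subunit of calprotectin, was at 9.42, 79.5, 5.53 and 91.5 RPKM, with a difference of 0.87 in the non-infarcted pair and a ratio of ratios of 1.96 (1.22 to 3.20). Its partner S100a9 was at 9.49, 73.2, 9.61 and 92.4 RPKM, a difference of 0.32. The receptor Csf3r and the gelatinase Mmp9 were at 0.00 and 0.01. Summed levels of the list were 312 and 323 RPKM in infarcted tissue and 91.6 and 61.2 RPKM in non-infarcted tissue, wild type first. Most of the gap in non-infarcted tissue came from Lcn2, the iron-binding lipocalin, at 59.1, 68.6, 33.5 and 40.1 RPKM, whose difference was 0.04.

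Macrophage genes had no common direction. The list had 9 members above and 12 below 0 and a median of -0.04. Arg1, the arginase of macrophages in wound repair, was at 10.2, 118, 6.63 and 161 RPKM, 11.5-fold and 24.2-fold higher in infarcted tissue. Its difference of 1.0 lay in both regions, with a ratio of ratios of 2.10 (1.69 to 2.63). The scavenger receptor Msr1, at 7.56, 28.1, 8.74 and 51.4 RPKM, had a difference of 0.66. At the other end, the membrane glycoprotein Gpnmb was at 10.3, 29.8, 27.3 and 48.6 RPKM, a difference of -0.63 in the non-infarcted pair, and Emr1, which codes for F4/80, was at -0.40. Cd5l, a secreted scavenger protein of tissue macrophages, was at 0.692, 2.59, 3.02 and 3.24 RPKM. Its difference of -1.01 was carried by the wild-type non-infarcted library alone.

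**Figure D3:**
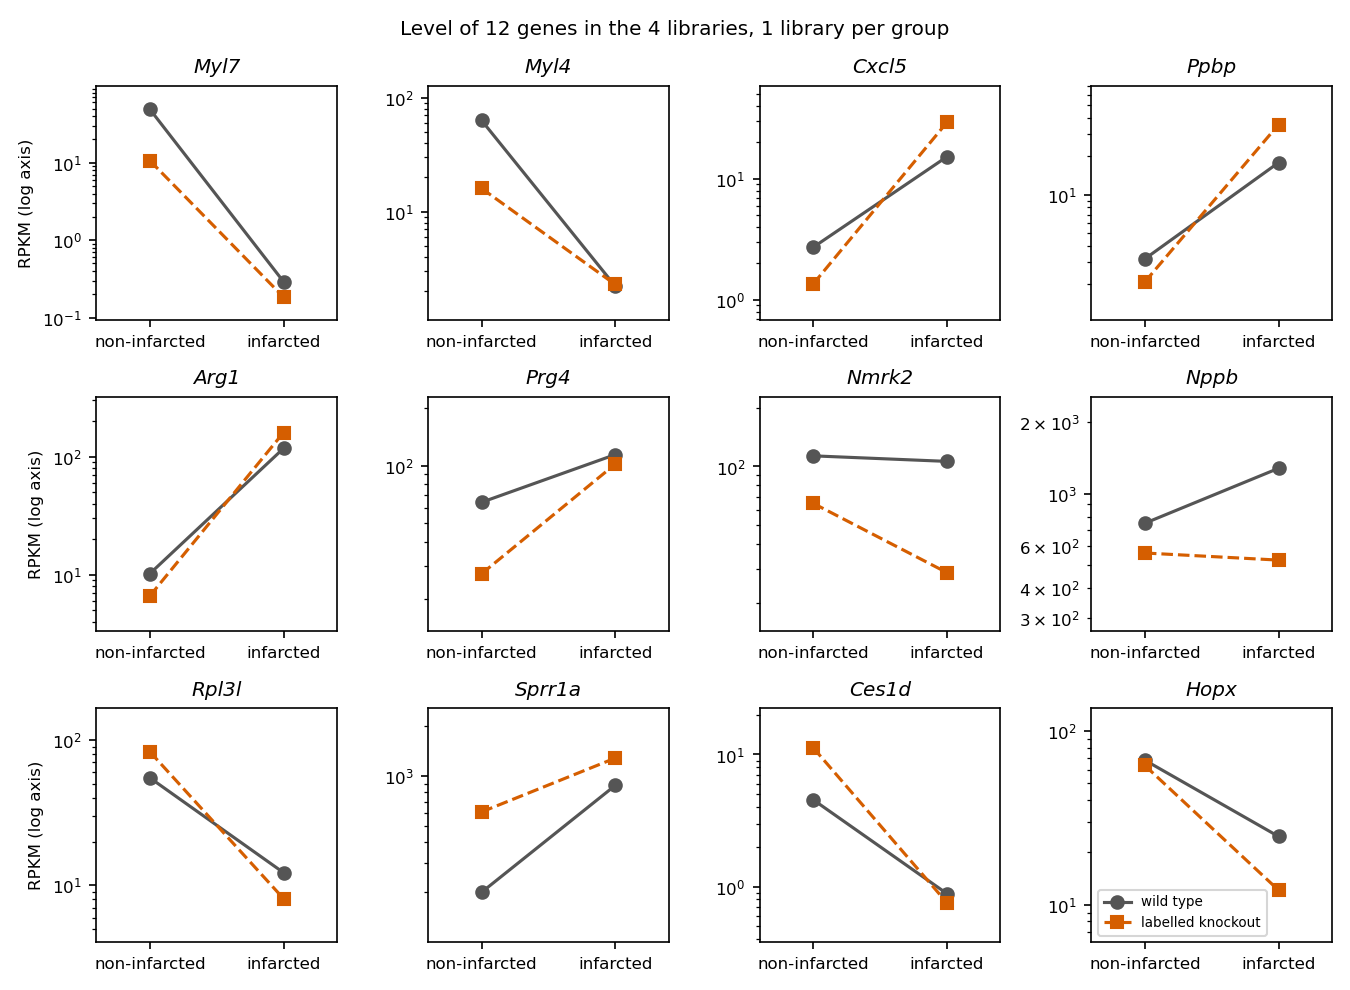
RPKM on a log axis of 12 genes in non-infarcted and infarcted tissue, with wild type as circles and full lines and the libraries labelled knockout as squares and dashed lines, 1 library per point and no error bars. The genotypes differ mainly at the left point for Myl7, Myl4 and Prg4, and mainly at the right point for Nmrk2, Nppb and Hopx. The lines cross for Cxcl5, Ppbp, Arg1, Rpl3l and Ces1d, and narrowly for Myl4 (2.23 and 2.30 RPKM in infarcted tissue, wild type first).

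Genes of cardiomyocytes had the opposite sign: their infarct ratios were more negative in the libraries labelled knockout. All 14 genes of the contractile list had a negative difference, with a median of -0.50, and 5 passed 1.5-fold, against 1.55% of all genes compared. Their median infarct ratio was -1.05 in wild type and -1.44 in the labelled-knockout libraries. Genes other than small RNA with a mean ratio between -1.5 and -1 had a median difference of -0.29, and only 8.99% of them were above 0. Myh6, the alpha myosin heavy chain, was at 4231, 1528, 3868 and 855 RPKM, a difference of -0.71 in the infarcted pair. The ventricular regulatory light chain Myl2 and the cardiac troponin I gene Tnni3 were both at -0.67. Over the list, the median difference between genotypes was -0.08 in non-infarcted and -0.59 in infarcted tissue. Titin (Ttn) had the smallest difference of the list, -0.11. In bulk tissue, fewer cardiomyocytes and less RNA per cardiomyocyte cannot be told apart.

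Most genes of the cardiac stress list also had a negative difference. The list's median infarct ratio was 0.25 in wild type and -0.15 in the labelled-knockout libraries. Of 14 members, 12 were below 0, the median difference was -0.48 and 6 passed 1.5-fold, against 1.55% of all genes compared. Nppb, which codes for brain natriuretic peptide, was at 750, 1279, 562 and 524 RPKM. It was 1.71-fold higher in wild-type infarcted tissue and 0.933 times its non-infarcted level in the libraries labelled knockout, a difference of -0.87 and a ratio of ratios of 0.547 (0.525 to 0.571). The atrial natriuretic peptide gene Nppa, at 1715, 2498, 1228 and 1805 RPKM, had nearly equal ratios, with a difference of 0.01. The members above 0 were Nppa and Ctgf.

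Nmrk2, the muscle nicotinamide riboside kinase that feeds NAD synthesis, was at 113, 106, 64.8 and 28.7 RPKM. Both labelled-knockout libraries were below both wild-type libraries, and the gap was 1.75-fold in non-infarcted and 3.70-fold in infarcted tissue. The difference was -1.06 in the infarcted pair, with a ratio of ratios of 0.472 (0.430 to 0.519). Of the same list, the stress-induced hormone Gdf15 was at -0.77 and the muscle ankyrin repeat gene Ankrd2 at -0.75. Lmcd1, a LIM domain cofactor, was at 27.3, 48.1, 29.3 and 28.2 RPKM, and its difference of -0.85 was carried by the wild-type infarcted library alone.

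Sprr1a, a small proline-rich protein that stressed cardiomyocytes make, was at 200, 877, 608 and 1281 RPKM. The labelled-knockout library was the higher one in each region, 3.04-fold in non-infarcted and 1.46-fold in infarcted tissue. The difference of -1.05 lay in the non-infarcted pair, with a ratio of ratios of 0.480 (0.456 to 0.506). Sprr1a thus had a smaller infarct ratio from a higher start, unlike Nppb and Nmrk2, which were lower in both regions.

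Other genes of muscle with a large negative difference had levels that were near to or above wild type in non-infarcted tissue. Rpl3l, a ribosomal protein of striated muscle, was at 54.9, 12.2, 83.0 and 8.10 RPKM, so that the labelled-knockout libraries were the highest and the lowest. Its difference of -1.13 lay in both regions, with a ratio of ratios of 0.438 (0.359 to 0.534). Ckm, the muscle creatine kinase, at 687, 242, 921 and 183 RPKM (-0.83), and the lipid droplet protein Fitm1, at 55.4, 17.2, 70.6 and 11.9 RPKM (-0.84), had the same pattern. Hopx, a homeodomain-only cofactor, was at 68.0, 24.7, 63.4 and 12.1 RPKM (-0.87). The alpha-1B adrenergic receptor gene Adra1b (-0.85) and the muscle fructose bisphosphatase Fbp2 (-0.92) lay in the infarcted pair as Hopx did.

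Crhr2 codes for a receptor of the urocortins on cardiomyocytes and vessels, and Ucn for one of its ligands. Crhr2 was at 10.6, 4.43, 9.91 and 1.84 RPKM, a difference of -0.84 in the infarcted pair, with a ratio of ratios of 0.446 (0.331 to 0.598). Ucn was at 2.19, 0.360, 1.20 and 1.02 RPKM from 4 to 21 reads, a difference of 1.11 in both regions, with a ratio of ratios of 5.21 (1.17 to 26.6). Receptor and ligand therefore had differences of opposite sign, the ligand on few reads.

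Genes of energy metabolism and of calcium handling were lower as groups, by less per gene than the stress genes. All 20 oxidative phosphorylation genes had a negative difference (median -0.38, 1 past 1.5-fold), as did 19 of 20 fatty acid oxidation genes (median -0.40, 1 past 1.5-fold) and all 12 genes of sarcoplasmic reticulum calcium handling (median -0.37, 1 past 1.5-fold). The largest in each were Cox7a1, a muscle subunit of cytochrome oxidase (-0.71), Ech1, a mitochondrial enoyl-CoA isomerase (-0.76), and Jph2, the junctophilin that links the plasma membrane with the reticulum (-0.62). Each list thus had 1 member past 1.5-fold, a larger share than the 1.55% of all genes compared. Nearly every member lay below the all-gene median of 0.00. Most genes other than small RNA with a like infarct ratio also had a negative difference. Their median was -0.29 for mean ratios between -1.5 and -1, and -0.39 between -2 and -1.5. Of these genes, 8.99% and 9.70% were above 0. The median difference between genotypes was 0.00 in non-infarcted and -0.31 in infarcted tissue for oxidative phosphorylation. For fatty acid oxidation it was 0.13 and -0.25.

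The glycolysis and hypoxia list had 16 of 17 members below 0, a median of -0.27 and 3 members past 1.5-fold, against 1.55% of all genes compared. Its median infarct ratio was 0.46 in wild type and -0.07 in the labelled-knockout libraries. Adm, the vasodilator adrenomedullin, was at 4.38, 16.6, 5.52 and 10.5 RPKM (-0.90). Egln3, an oxygen-dependent prolyl hydroxylase of the hypoxia pathway, was at 41.8, 70.4, 40.3 and 38.5 RPKM. The wild-type infarcted library stood alone above the other 3 and carried its difference of -0.80. Vegfa, the endothelial growth factor, was at 96.3, 73.2, 93.3 and 45.0 RPKM (-0.65). Ak4, a mitochondrial adenylate kinase, was at 6.64, 8.69, 7.43 and 4.93 RPKM, and its difference of -0.85 was carried by the infarcted library labelled knockout.

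**Figure D4:**
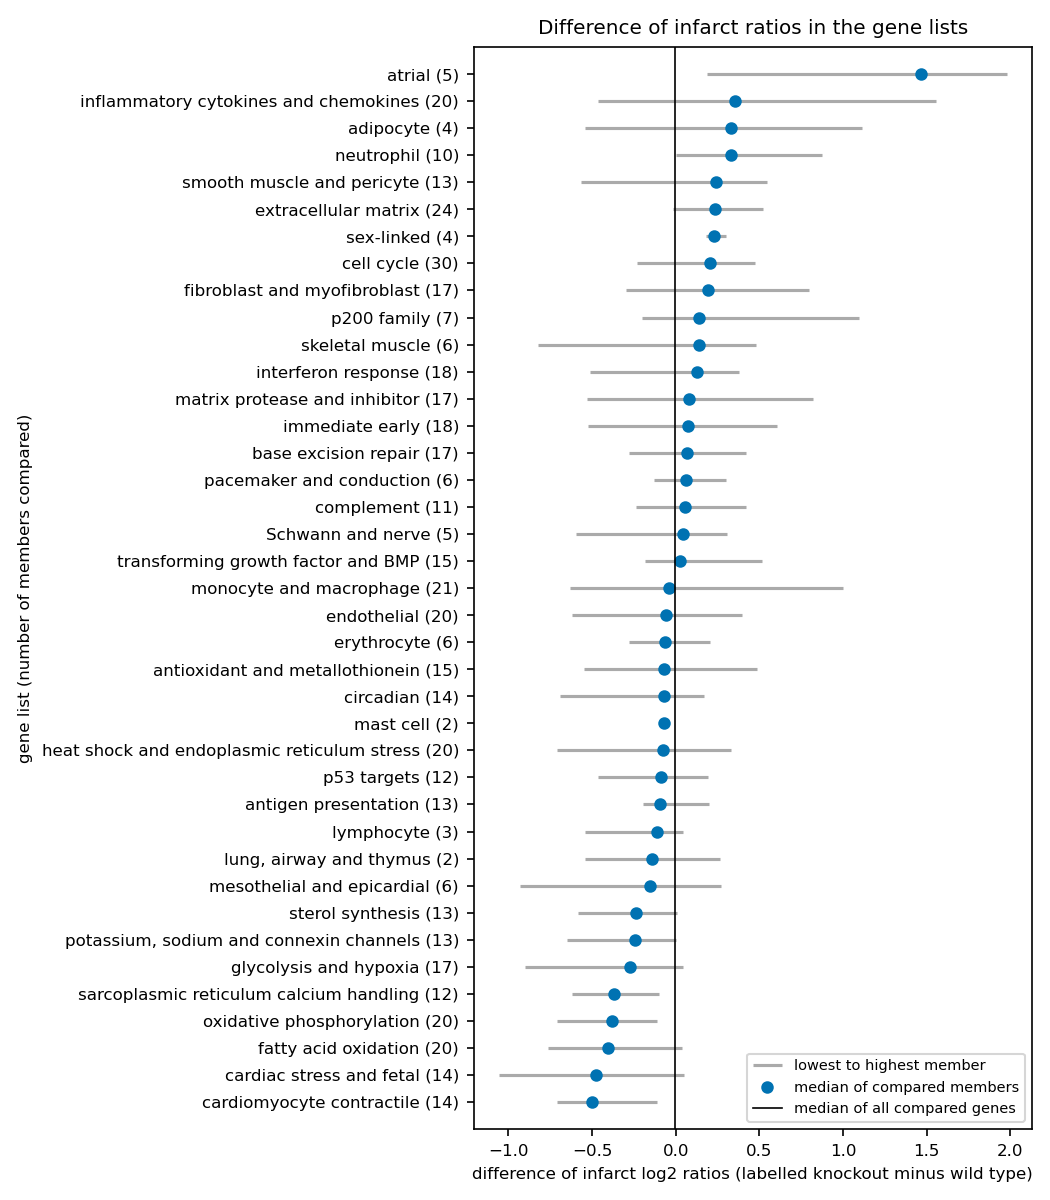
Difference of infarct log2 ratios (x axis) for 39 gene lists (y axis, number of members compared in brackets), with the median as a point, the lowest to highest member as a bar and the median of all compared genes as a vertical line. The atrial list is highest at 1.47, and the contractile and cardiac stress lists are lowest at -0.50 and -0.48.

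Scar-forming and proliferation genes had small positive differences. The extracellular matrix list had 22 of 24 members above 0, with a median of 0.24 and none past 1.5-fold, against 1.12% of all genes compared. Spp1, the matricellular protein osteopontin, was at 168, 837, 208 and 1388 RPKM (0.42), and the collagen cross-linking enzyme Lox at 60.8, 143, 64.7 and 207 RPKM (0.44). The collagen gene Col1a1, at 440, 821, 646 and 1316 RPKM, was higher in the labelled-knockout library of each region and had a difference of only 0.13. Of 30 cell cycle genes, 27 were above 0, with a median of 0.20 and none past 1.5-fold, against the same 1.12%. Median infarct ratios, wild type first, were 0.71 and 0.86 for the matrix list and 0.93 and 1.20 for the cell cycle list. Among genes other than small RNA with a mean ratio between 0.5 and 1, 63.3% were above 0, with a median of 0.07. Between 1 and 1.5 these values were 64.4% and 0.08. Aurka, a mitotic kinase, was the highest at 0.47, and the proliferation marker Mki67 was at 15.1, 28.8, 18.4 and 46.4 RPKM (0.40).

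Some matrix and replication genes with larger differences lay outside these 2 lists. Prg4, the lubricating proteoglycan of joint and serous surfaces, was at 64.3, 114, 27.2 and 102 RPKM. Its difference of 1.05 lay in the non-infarcted pair, where wild type was 2.36-fold higher, with a ratio of ratios of 2.11 (1.98 to 2.25). Comp, a cartilage matrix protein made by activated fibroblasts, was at 6.42, 2.18, 6.01 and 4.22 RPKM (0.80), and the macrophage elastase Mmp12 at 3.35, 12.4, 3.07 and 21.2 RPKM (0.82). Comp was the highest member of the fibroblast list, whose median was 0.19 with 11 members above and 6 below 0. Mmp12 was the highest of the matrix protease list, whose median was 0.08 with 13 above and 4 below 0. Gins1, a subunit of the replication helicase, was at 0.85. The replication-dependent histone gene Hist1h2ao was at 15.5, 30.7, 9.26 and 40.5 RPKM (1.08, both regions), but it has near-identical copies among which reads could be divided.

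Base excision repair genes, the family to which Neil3 belongs, had no common direction. Of 17 compared, 9 were above and 8 below 0, the median was 0.07 and none passed 1.5-fold. Over all genes compared, 1.12% passed it in the positive and 1.55% in the negative direction. The highest was Ogg1, the glycosylase of 8-oxoguanine, at 5.31, 6.40, 3.91 and 6.71 RPKM (0.42), and the lowest was the alkylpurine glycosylase Mpg (-0.28).

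Of 10 genes on the fat cell list, only 4 reached 1 RPKM in a library and were compared, and these divided into 2 pairs. Cfd, the adipokine adipsin, was at 3.48, 0.0626, 3.02 and 1.07 RPKM, and Car3, a carbonic anhydrase abundant in fat and slow muscle, at 4.19, 0.188, 3.23 and 1.0 RPKM. Their differences of 1.12 and 1.05 lay in the infarcted pair, where wild type held 1 and 5 reads and the library labelled knockout 18 and 28. The ratio of ratios was 19.7 (2.80 to 835) for Cfd and 6.89 (2.44 to 23.8) for Car3. The lipid droplet genes Plin4 and Cidea, which muscle also makes, were at -0.54 and -0.38. Ces1d, a lipid-hydrolysing carboxylesterase, was at 4.54, 0.884, 11.2 and 0.755 RPKM, a difference of -1.25 in the non-infarcted pair, with a ratio of ratios of 0.345 (0.189 to 0.627).

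For weakly expressed genes the difference on the log2(RPKM + 1) scale and the ratio of ratios could disagree. Ifi202b, an interferon-inducible p200 family gene on chromosome 1, was at 0.112, 0.226, 9.08 and 22.8 RPKM. It was almost absent in both wild-type libraries, with 3 and 7 reads, and its infarct ratio was 2.01-fold in wild type and 2.51-fold in the libraries labelled knockout. The difference was 1.10, whereas the ratio of ratios was 1.25 (0.206 to 5.51). The other 6 members of the family lay between -0.20 and 0.35. Hsd17b7, a reductase of steroid and cholesterol synthesis also on chromosome 1, was at 5.15, 4.26, 0.841 and 1.89 RPKM (0.88), and here the ratio of ratios had the same direction, at 2.71 (1.91 to 3.89). The keratin gene Krt19, with 3 to 124 reads, had a difference of -0.93 and a ratio of ratios of 0.881 (0.206 to 5.30).

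Among the remaining genes past 2-fold, the chemokine Ccl19 was at 5.22, 2.41, 3.79 and 4.50 RPKM, and its difference of 1.07 was carried by wild-type infarcted tissue. Near-identical copies of Ccl19 exist in the mouse genome, so its read number is uncertain. Rhox5, a homeobox gene of the X chromosome, was at 3.86, 6.93, 3.54 and 14.7 RPKM (1.09, infarcted pair). Trappc6a, a vesicle tethering subunit, was at 4.21, 8.08, 6.71 and 5.69 RPKM (-1.01), carried by the wild-type non-infarcted library, which also carried Gm14327 (1.15). Wild-type infarcted tissue carried 1700020L24Rik (-1.31) and 2210417K05Rik (-1.08). The latter had only 2, 12, 5 and 4 reads, with a ratio of ratios of 0.121 (0.00923 to 1.21). The non-infarcted library labelled knockout carried the class I-like gene Mill2 (-1.13) and the pseudogene Rps19-ps3 (-1.25), whose reads may stem from its parent gene. Rps19-ps3 had only 1, 4, 9 and 3 reads, with a ratio of ratios of 0.0758 (0.00139 to 1.36). Gm15179 (-1.08) was carried by the infarcted library labelled knockout, 2310050B05Rik (-1.48) lay in the infarcted pair, and the G protein subunit gene Gnb3 (-1.08) and 2210404O07Rik (-1.08) lay in both regions.

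Across all genes other than small RNA, the sign of the difference went with the direction of the infarct ratio. The 598 genes that were at least 2-fold lower in infarcted tissue on the average of both genotypes had a median difference of -0.31, and 541 of them (90.5%) were below 0. Their median infarct ratio was -1.13 in wild type and -1.43 in the labelled-knockout libraries. Between genotypes they differed by a median of 0.02 in non-infarcted and -0.28 in infarcted tissue. The 830 genes that were at least 2-fold higher on average had a median difference of 0.10, and 547 (65.9%) were above 0. Their median infarct ratio was 1.21 in wild type and 1.28 in the labelled-knockout libraries.

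The step from one end to the other was gradual. The median was -0.43 for the 30 genes with a mean ratio of -2 or lower, -0.17 for the 1000 genes between -1 and -0.5, 0.03 for the 4956 genes between 0 and 0.5 and 0.42 for the 47 genes above 2. The mean and the difference come from the same 4 libraries, so this is a description. The share of reads on contractile genes moved with it, at 4.04% in wild-type infarcted and 2.71% in labelled-knockout infarcted tissue. The part of this share in the differences was not tested, and whether the infarcted samples held a like amount of surviving muscle cannot be told apart from genotype.

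**Figure D5:**
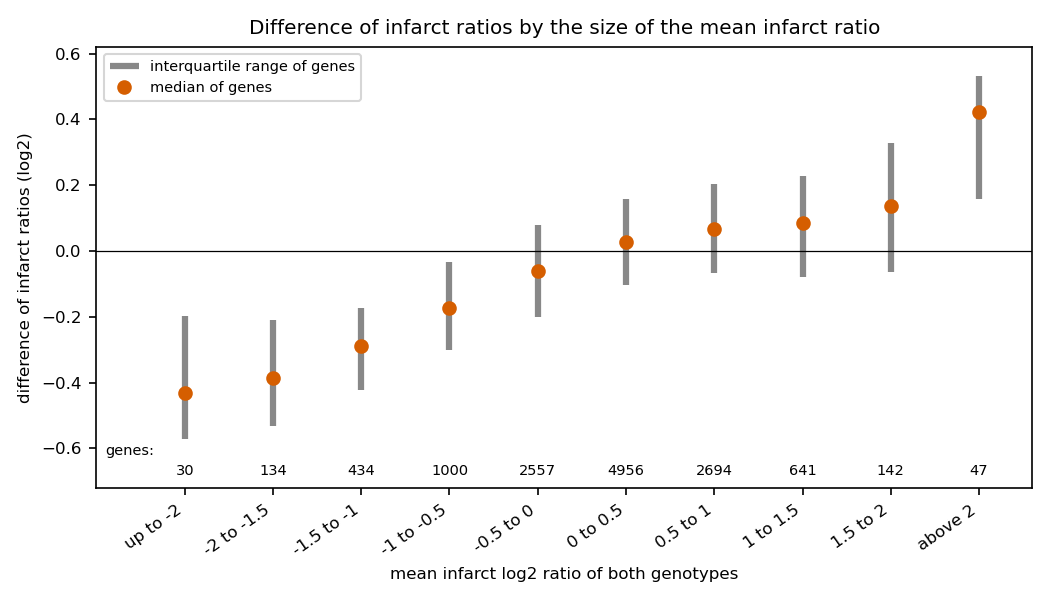
Median (points) and interquartile range (bars) of the difference of infarct ratios (y axis, log2), for genes grouped by the mean infarct log2 ratio of both genotypes (x axis), ribosomal and small noncoding RNA left out, with the number of genes under each bar. The median goes from -0.43 for genes lowest in infarcted tissue to 0.42 for genes highest in it.

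Small noncoding RNA made up most of the list past 2-fold, largely on few reads. Of these 37 genes, 28 had fewer than 20 reads in every library, and 31 had at most 3 reads in their lowest library. Only 3 had a ratio of ratios whose counting interval lay apart from 1, against 24 of the 30 other genes. These were Rn18s (18S ribosomal RNA), Rn7sk (the 7SK RNA that restrains transcription elongation) and Mir703.

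The infarcted library labelled knockout stood above the other 3 for several structured RNAs. Rn18s was at 2446, 2008, 2403 and 4313 RPKM, a ratio of ratios of 2.19 (2.15 to 2.22). Ribosomal RNA as a whole took 2.31%, 1.45%, 2.07% and 2.32% of reads in the same order. Its share was thus nearly the same in that library and in wild-type non-infarcted tissue. Rn7sk was at 16.8, 13.3, 14.8 and 42.0 RPKM, a ratio of ratios of 3.61 (2.35 to 5.54). Rmrp, the RNA of the RNase MRP enzyme, had 2, 7, 4 and 70 reads, and Rnu1a1, the U1 spliceosomal RNA, had 0, 1, 1 and 28 reads. That library also carried Snord22, Snord55, Snord96a, Snord123, Mir703, Mir3062 and Mir3092 in the positive direction and Mir486, Mir702, Snora5c and Snora30 in the negative direction. Small RNA took 0.0146% of its reads, against 0.00867% to 0.0109% in the other libraries. The part of RNA quality or library preparation in this was not tested.

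Elsewhere among the small RNA genes, the wild-type non-infarcted library carried Snord32a, Snora75, Mir467f, Mir1191, Mir1199, Mir1945 and Mir3074-1. Wild-type infarcted tissue carried Mir568, Mir682, Mir1249, Mir3112 and Snora3, and the non-infarcted library labelled knockout carried Mir208a, Mir3098, Snord17 and Snord89. Snord14e, Snora65, Snora73a, Mir680-1 and Mir3101 lay in the non-infarcted pair, and Mir208b in the infarcted pair.

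The heart microRNA genes Mir208a and Mir208b are shown because they lie within Myh6 and Myh7, the myosin heavy chain genes of the contractile and stress lists. The seed, bases 2 to 8 of the mature RNA, is in capitals and is the same in both. Sequences are from RefSeq on GRCm38.p6.
mmu-miR-208a-3p, chr14:54949072-54949093, minus strand: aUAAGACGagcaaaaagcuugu
mmu-miR-208b-3p, chr14:54975710-54975731, minus strand: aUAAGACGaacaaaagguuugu
Of 19 microRNA genes past 2-fold, 18 had a mature sequence in the RefSeq table, with 25 distinct seeds among 27 mature sequences.

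Mir208b had 16, 2, 20 and 0 reads, a difference of -1.68, and was near or at 0 in both infarcted libraries. Between genotypes it differed by -1.32 in infarcted tissue, on 2 reads against 0, so no ratio of ratios is given. Mir208a had 2 reads in the non-infarcted library labelled knockout and none elsewhere. Its difference of -1.43 therefore rests on 2 reads. Myh7, the host of Mir208b, was at 158, 64.7, 85.9 and 30.5 RPKM, with a difference of -0.18. Reads counted on these genes cannot be told apart from transcripts of the host genes, and the mature microRNAs were not measured by a small RNA assay.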

How the data were processed

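Total RNA of 4 mouse left ventricle samples was sequenced, 1 library per group. The authors deposited uniquely assigned read counts per gene by Entrez identifier, and the deposited RPKM values equal reads divided by listed length and library total. The submitters' processing notes name mm9. Aligner, counting tool and annotation: not given in the sources used here. Genes not listed in a library were taken as 0. Lengths differed between files for 22 genes, none of them named.

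Differences were computed on log2(RPKM + 1). Ratios of ratios used read counts and totals, with the exact conditional 95% interval of the odds ratio; none is given where a library had 0 reads, and the intervals cover counting error only. At these totals, 3 reads on 2 kb are 0.0824 to 0.105 RPKM. No test across genes was run, since 1 library per group leaves no residual variation.

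Named are Neil3, the 15 highest and 15 lowest differences at 5 RPKM or more (provisional names and small RNA left to counts), the 4 largest carried by each library, and up to 4 members per gene list. Other genes were named after their values were seen. Members, lists and rules were chosen with earlier results of these data known. Of 574 entries in 39 lists, 563 were found and 504 compared. Tools were Python 3.11.15, scipy 1.17.1, R 4.3.3 and edgeR 4.0.16 (TMM scaling only). Alternatives changed the pseudocount, filter, scaling, threshold and library rule.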

Additional observations from a re-analysis of the deposited data

Results flagged for a closer look

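Opposite signs of the infarct ratio in the 2 genotypes were looked for among genes other than small RNA that were past 2-fold, or named and past 1.5-fold, and whose counting interval of the ratio of ratios lay apart from 1. This held for 21 genes. Among gene lists with a median difference of at least 0.25 in size, it held for the medians of 2. Genes and lists with smaller differences or wider intervals could also have opposite signs and are not given here. With 1 library per group, none of these differences was tested. The ratio was above 0 in wild type and below 0 in the libraries labelled knockout for 1700020L24Rik (-1.31), Mill2 (-1.13), Gm15179 (-1.08), Trappc6a (-1.01), Nppb (-0.87), Lmcd1 (-0.85), Ak4 (-0.85), Egln3 (-0.80), Mapk4 (-0.79), Rtn4r (-0.77), Shb (-0.71), Chac1 (-0.71), Rad52 (-0.69) and the small heat shock protein gene Cryab (-0.59). The same held for the median of the cardiac stress list (-0.48) and of the glycolysis and hypoxia list (-0.27). It was below 0 in wild type and above 0 in the libraries labelled knockout for Gm14327 (1.15), Ccl19 (1.07), Hsd17b7 (0.88), Lysmd3 (0.82), the iron exporter gene Slc40a1 (0.77), the replication protein gene Rpa3 (0.70) and the histone variant gene H2afy2 (0.67). Each value in parentheses is the difference of infarct log2 ratios. Several of these signs rest on a ratio near 0. In the libraries labelled knockout it was -0.01 for Cryab, -0.05 for Rtn4r and Rad52, -0.06 for Lmcd1, -0.07 for Egln3 and -0.10 for Nppb. In wild type it was 0.09 for Mapk4, 0.12 for Mill2, 0.16 for Chac1, -0.07 for Rpa3, -0.09 for H2afy2 and -0.12 for Lysmd3. TMM factors were 0.918 and 0.929 in non-infarcted and 1.07 and 1.09 in infarcted libraries, wild type first. Such scaling lowers the infarct ratios of both genotypes, so that a ratio just above 0 can turn negative. Signs after it were not computed.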

How the results depend on the processing

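The counts past 2-fold (38 higher, 29 lower) depended on the handling of low values. A pseudocount of 0.1 RPKM gave 99 higher and 100 lower, one of 5 RPKM 10 and 3, and a mean of at least 5 RPKM 15 and 7. Without ribosomal and small noncoding RNA the counts were 17 and 13. With all genes kept, a threshold of 1.5-fold gave 142 and 197. Limiting the calls to genes whose counting interval lay apart from 1, an alternative chosen after seeing the data, left 15 and 12. TMM scaling gave 36 and 30, median-ratio scaling 36 and 31, and no filter 40 and 32.

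The place of the difference is given in the order wild-type non-infarcted, wild-type infarcted, labelled-knockout non-infarcted and labelled-knockout infarcted library, infarcted pair, non-infarcted pair and both regions. The counts were 10, 8, 6, 16, 8, 12 and 7. They became 31, 20, 17, 30, 24, 46 and 31 with a pseudocount of 0.1 RPKM, and 1, 0, 0, 6, 3, 3 and 0 with 5 RPKM. With a mean of at least 5 RPKM the 4 single libraries carried 1, 1, 0 and 5 genes, the non-infarcted pair 5 and both regions 4. Without ribosomal and small noncoding RNA the single libraries carried 2, 3, 2 and 1. When the other 3 libraries had to span a smaller share of the difference (0.333), wild-type infarcted tissue carried 4, the labelled-knockout libraries 3 and 10, the infarcted pair 14 and both regions 17.

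The median of genes at least 2-fold lower on average stayed between -0.32 and -0.29, and that of genes at least 2-fold higher between 0.08 and 0.12, under each pseudocount, filter and scaling. The adipocyte list median turned from 0.33 to -0.46 with a mean of at least 5 RPKM, which leaves only its members below 0. Of the 181 named genes, 4 changed sign under some setting: Neil3 (0.07 with a pseudocount of 5 RPKM, -0.46 with 0.1 RPKM), Cd79a, Mbp and Hpgds, none of them past 1.5-fold. Of the 39 list medians, 7 did. The lower and the higher pseudocount moved 19 and 42 named genes. No paired analysis was possible because each group has 1 library, and for the same reason no library could be left out. Depth limits genes with few reads in the infarcted libraries, such as Myl7, Mybphl, Cfd and most small RNA.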
